A study of Mus musculus with 4 samples.

Results

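Metallothioneins were followed in 4 samples of mouse hippocampus, each profiled from total RNA on 1 Affymetrix Murine Genome array. Earlier results of these data were known when the genes were chosen, but no cutoff on their signals was used. They were taken by symbol, as every probe set that the array's annotation gives to Mt1, Mt2 or Mt3 alone. This gave 3 probe sets, 1 per gene (93573_at for Mt1, 101561_at for Mt2 and 95340_at for Mt3), so that 3 of the 8251 genes with a probe set of their own were described. The samples form a single group, numbered 1 to 4 by name only, and the labels give no strain, sex, age or treatment and do not say if each came from its own animal. Part of their spread may therefore be technical, and no groups were compared. Signals are linear array intensities after quantile normalization, which gives every array the same distribution of signals, and each sample has a single value without an error of its own.

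Metallothioneins are small, cysteine-rich proteins that hold zinc and copper ions and can release them again. Mt1 and Mt2 are expressed in most tissues, in brain chiefly in astrocytes, and their transcription is known to increase with zinc and other metals through the factor Mtf1, with glucocorticoids, and with inflammatory and oxidative signals. Mt3 is the brain form, known also as growth inhibitory factor, is found in zinc-rich neurons and in astrocytes, and is not readily induced by metals. The other mouse metallothionein, Mt4, belongs to stratified epithelia.

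The mouse genes stand in 1 cluster on chromosome 8 in the order Mt4, Mt3, Mt2, Mt1. In the RefSeq promoter table (build GRCm38.p6), which matched 3 of the 3 genes, the annotated start of Mt2 lies 20011 bp after that of Mt3, and the start of Mt1 lies 6471 bp after that of Mt2, all on the plus strand. The 250 bases before each start are printed because metal response elements, the short sites that Mtf1 binds, are the known route by which metals act on Mt1 and Mt2. They cover chr8:94178839-94179088 for Mt1, chr8:94172368-94172617 for Mt2 and chr8:94152357-94152606 for Mt3. Capitals mark matches to the core of that element, in either orientation.
Mt1: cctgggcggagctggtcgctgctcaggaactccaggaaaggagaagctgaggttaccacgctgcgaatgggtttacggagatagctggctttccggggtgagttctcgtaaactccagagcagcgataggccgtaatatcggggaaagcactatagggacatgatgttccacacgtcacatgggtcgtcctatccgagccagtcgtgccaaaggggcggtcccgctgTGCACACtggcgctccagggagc
Mt2: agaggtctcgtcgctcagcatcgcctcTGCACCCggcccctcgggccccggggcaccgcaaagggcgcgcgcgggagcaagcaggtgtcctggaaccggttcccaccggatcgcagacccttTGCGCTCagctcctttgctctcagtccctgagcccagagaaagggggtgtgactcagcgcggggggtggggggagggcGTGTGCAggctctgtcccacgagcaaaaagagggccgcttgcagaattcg
Mt3: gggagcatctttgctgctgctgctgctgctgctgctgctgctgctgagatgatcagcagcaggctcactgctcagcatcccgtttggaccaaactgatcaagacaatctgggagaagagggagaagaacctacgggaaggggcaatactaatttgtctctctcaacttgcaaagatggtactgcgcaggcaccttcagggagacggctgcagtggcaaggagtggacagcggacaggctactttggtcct

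The search covered these bases and the 50 bases after each start, on both strands, for TGCACNC or TGCGCNC as the metal response element core. Mt2 held 4 matches, of which 3 lie in the printed stretch and 1 after the start, and 0.517% of the 32851 windows of the same length in the table held as many. Mt1 held 3 matches, 1 before and 2 after the start, a number reached in 1.97% of windows. Mt3 held 1 match, after the start, and 25.7% of windows held at least 1. The antioxidant response element core TGACNNNGC matched once for Mt2 and not for Mt1 or Mt3, against 12.4% of windows with a match. The GC box GGGCGG matched 3 times for Mt1, 1 of them overlapping a metal response element core, and not for Mt2 or Mt3, against 35.7% of windows with a match. The letters TATAAA were in 0 of the 3 windows and in 13.6% of all windows. The annotated start of Mt1 lies 206 bp after the first base of the gene in the RefSeq gene table of the same build. By that table most of the printed Mt1 stretch lies inside the gene, and other windows are possible. The Mt1 counts, the placement of its matches before or after the start and its lack of TATAAA hold for this window only. A match is a run of letters and not a bound site.

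**Figure D1:**
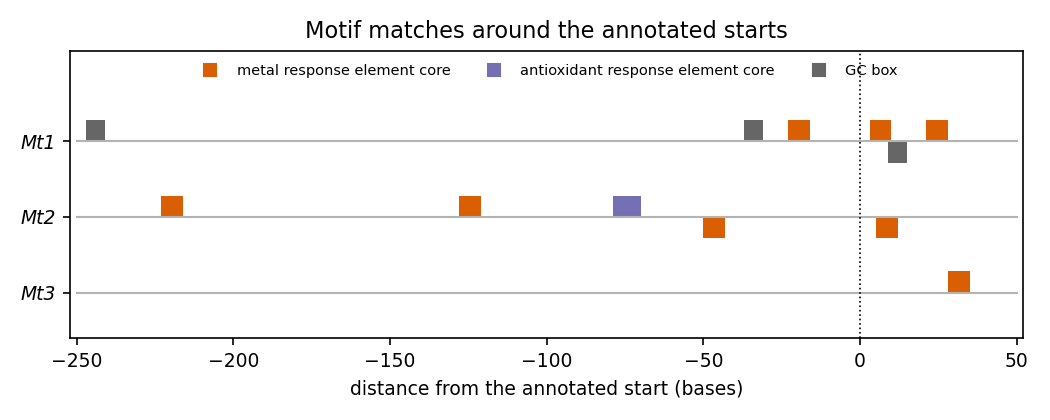
Positions of motif matches around the annotated starts of Mt1, Mt2 and Mt3 (x axis, bases from the start, dotted line), with matches on the plus strand above each line and on the minus strand below it. Metal response element cores number 3 for Mt1, 4 for Mt2 and 1 for Mt3, and the Mt3 match lies after the start.

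Mt1 gave 3942, 4436, 4359 and 6325 units in samples 1 to 4, a mean of 4765 ± 1062 units (SD, n = 4). Sample 4 stood above the other samples, which lay close together. Its log2 signal was 0.58 above their mean, a 1.49-fold difference, and sample 1 was the lowest, with a deviation of -0.33 log2 units from the mean of the others. The gap from sample 4 to the next sample took 0.750 of the whole range, short of Dixon's critical value for an outlier among 4 values. The range of Mt1 was 0.68 log2 units over the 4 samples and 0.17 without sample 4. A larger log2 deviation in sample 4 was found for 527 of all 6210 analysed probe sets (8.49%), those whose mean signal exceeds the median over probe sets.

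Mt2, whose product is close in sequence and function to that of Mt1, gave 5401, 5490, 5365 and 5979 units, a mean of 5559 ± 285 units (SD, n = 4). The samples were nearly level, and sample 4 was again the highest, by 0.14 log2 units (1.10-fold) over the mean of the others. Its range of 0.16 log2 units, a 1.11-fold span, was among the smallest on the array, since 3.88% of analysed probe sets had a smaller one. This depended on the scaling. The range was 0.27 log2 units in the deposited values and 0.40 after scaling the arrays to a shared median, and sample 4 lay 0.23 and 0.31 log2 units above the others. Without sample 4, the range was 0.03 log2 units. The array annotation gives each probe set to 1 gene, and whether the Mt1 and Mt2 probe sets also detect the other gene's transcript was not tested.

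Mt3, the brain form, gave 7144, 5544, 5799 and 6680 units, a mean of 6292 ± 748 units (SD, n = 4). Here sample 1 was the highest, at 0.25 log2 units (1.19-fold) above the mean of the others, and sample 4 followed at 0.13 above. Samples 2 and 3 were the lower pair. The range was 0.37 log2 units (1.29-fold), or 0.51 in the deposited values and 0.60 after median scaling. Mt4 gave 10.0, 9.05, 16.2 and 18.1 units, in each sample below the floor of 27.7 units (the 25th percentile of all signals) under which values were given no order.

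**Figure D2:**
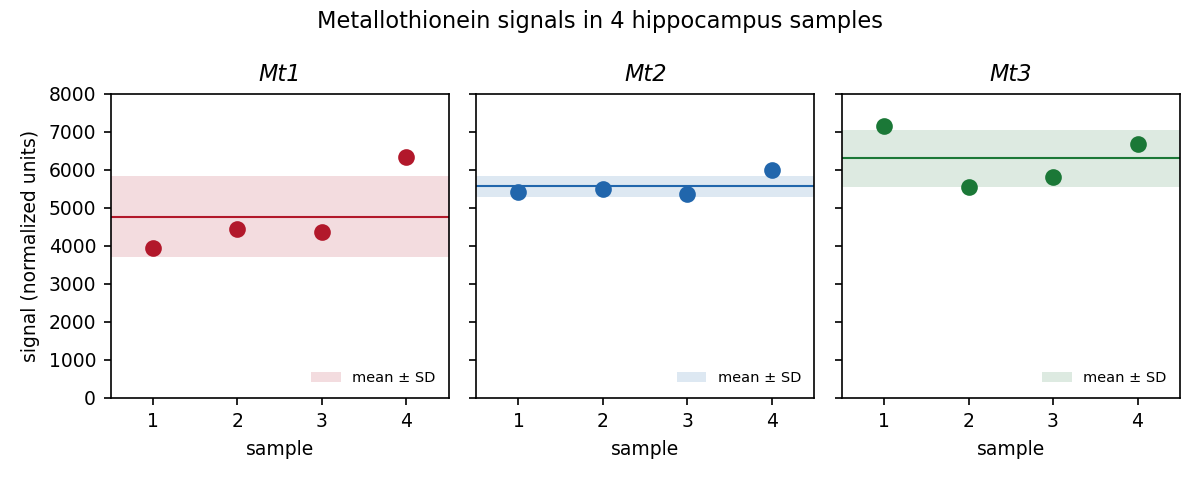
Signal in normalized units (y axis, from 0) of Mt1, Mt2 and Mt3 in samples 1 to 4 (x axis), 1 point per array, with the mean as a line and the SD over 4 samples as a band. Points above the band are those of sample 4 for Mt1 (6325 units) and Mt2 (5979 units) and of sample 1 for Mt3 (7144 units), and the 4 points of Mt2 are the closest together.

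All 3 probe sets were bright. Depending on gene and array, 98.9% to 99.7% of probe sets had a lower deposited signal, and the brightest probe sets of the 4 arrays reached 16568 to 19914 units. Signals of different probe sets depend on their own binding strength, so these figures place the probe sets within the range of the arrays and do not rank the transcripts.

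The spread of each gene was set against that of probe sets of like signal, in what is called the variance test here. It is a one-sided F test of the gene's variance against the trend fitted by limma, adjusted over 6210 probe sets by Benjamini-Hochberg. Past the threshold of 0.05 were 0 of 3 metallothionein probe sets, as were 0% of all analysed probe sets. At an unadjusted p under 0.05 there were 0 of 3, against 5.62% of all. The SD of Mt1 was 2.14 times that of the fitted trend (adjusted p = 0.900 by the F test). For Mt3 the SD was 1.31 times the trend (adjusted p = 0.994 by the F test), and for Mt2 0.539 times (adjusted p = 0.996 by the F test). A span of 1.5-fold or more was seen for 1 of the 3 genes, Mt1, against 44.2% of all probe sets, and a span of 2-fold or more for 0 of 3, against 15.2%. The typical analysed probe set spanned 0.53 log2 units (median), and 65.3% of them spanned less than Mt1.

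**Figure D3:**
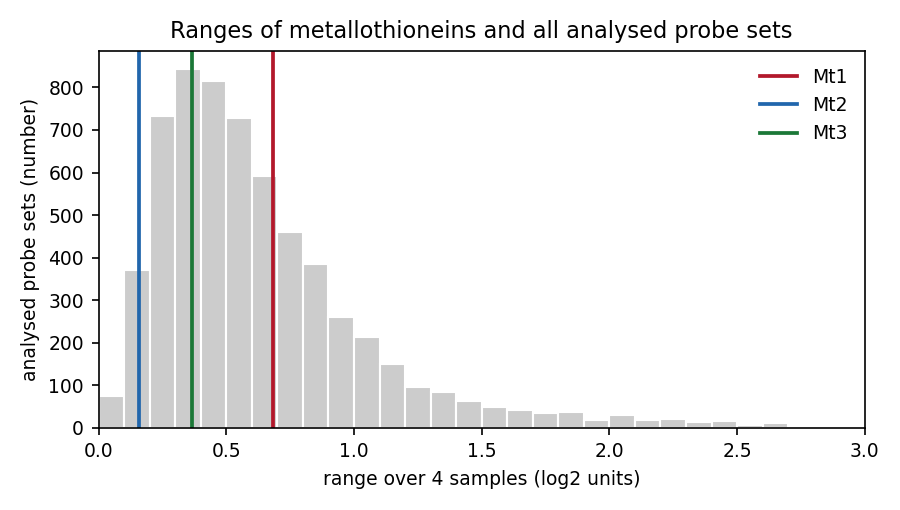
Number of analysed probe sets (y axis) by range over the 4 samples in log2 units (x axis, bins of equal width), with Mt1, Mt2 and Mt3 as vertical lines. Mt1, at 0.68, lies above the median of 0.53, Mt3 (0.37) and Mt2 (0.16) lie below it, and 32 probe sets with ranges of at least 3 are beyond the axis.

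Sample 4 was the highest sample for 2 of the 3 genes, Mt1 and Mt2, where 31.1% of all analysed probe sets had their highest value. It was above the mean of the other samples for 3 of 3, against 52.2% of all probe sets, and this direction was the same for each gene in the deposited values and after median scaling. The signals of the 3 genes did not change by one shared factor. The log2 ratio of Mt1 to Mt2 signal was -0.45, -0.31, -0.30 and 0.08 in samples 1 to 4, a range of 0.54 (1.45-fold), or 0.15 with sample 4 left out. The ratio of Mt1 to Mt3 varied more, at -0.86, -0.32, -0.41 and -0.08, a 1.72-fold range with its lowest value in sample 1. For Mt2 over Mt3 the log2 ratios were -0.40, -0.01, -0.11 and -0.16. A ratio of 2 probe sets has no meaning as a level, and only its change between arrays is read here. With 1 value per sample, these differences could not be set against an error within samples.

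Sample 4 had the highest ratios for the array's control transcripts, though for Actb the samples formed a graded series. The ratio of 3' to 5' signal, higher where RNA or its copy is less complete, was 2.03 for Actb in sample 4 and 1.51 to 1.84 in samples 1 to 3, and for Gapdh 1.15 in sample 4 and 0.864 to 0.981 in the others. The part of RNA quality in the metallothionein signals was not tested.

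The pattern of each metallothionein over the samples was compared with that of all other analysed genes. Likeness was measured as the root mean square difference of log2 values, each gene centred on its own mean over the 4 samples, against 4823 other genes. Mt2 lay 0.20 from Mt1, and 835 genes (17.3%) were closer to Mt1, while 2271 genes (47.1%) were closer to Mt2. Mt3 lay 0.28 from Mt1, with 1932 genes (40.1%) closer to Mt1 and 2920 (60.5%) closer to Mt3. Mt3 lay 0.14 from Mt2, with 1332 genes (27.6%) closer to Mt2 and 693 (14.4%) closer to Mt3. Nearest to Mt1 were Krtap13, the small heat shock protein gene Hspb8, the mitochondrial ATPase gene Atad3a and the galactosyltransferase gene B4galt3, at 0.03 to 0.04 log2 units. Hspb8 gave 222, 243, 235 and 360 units in samples 1 to 4, with sample 4 well above the rest as for Mt1. Nearest to Mt2 were Prkar1a, a regulatory subunit of protein kinase A, Tbc1d14, the cilium transport gene Ift81 and the dopamine receptor gene Drd2, at 0.01 log2 units each. Prkar1a was as level as Mt2, with 4397, 4523, 4381 and 4871 units. Nearest to Mt3 were Trafd1, the neuronal RNA-binding protein gene Elavl4, Clptm1 and the autophagy gene Atg13, at 0.02 to 0.03 log2 units. With 4 samples many genes share a pattern. The order of samples seen for Mt1 occurred in 269 of the 4823 other genes (5.58%), that of Mt2 in 286 (5.93%) and that of Mt3 in 163 (3.38%).

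Zinc handling was covered by 13 listed genes, of which 10 were measured and 9 analysed. In sample 4, 3 of these 9 exceeded the mean of samples 1 to 3, and the median log2 deviation was -0.04, against 0.02 over all analysed probe sets. Mtf1, the metal-sensing factor that binds metal response elements, gave 206, 144, 220 and 123 units in samples 1 to 4. It was lowest in sample 4, where Mt1 was highest, and it had the largest range of the list (0.84 log2 units). Slc30a3, which loads zinc into synaptic vesicles of hippocampal mossy fibres, was nearly level, with 2047, 1962, 2108 and 2265 units. Past the variance test were 0 of the 9 genes, and 0 at an unadjusted p under 0.05, against 0% and 5.62% of all probe sets.

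Copper handling had 6 analysed genes among 10 listed. In sample 4, 4 of these exceeded the mean of samples 1 to 3 (median 0.25 log2 units), against 52.2% of all analysed probe sets. Their highest value was in sample 4 for 3 of the 6, against 31.1% of all. In sample 1, 1 of the 6 exceeded the mean of the rest (median -0.26), against 3194 of all 6210 analysed probe sets. The copper pump Atp7a gave 63.6, 69.1, 112 and 202 units, a 3.17-fold range. The copper chaperone Atox1 gave 969, 1134, 1067 and 988 units, with sample 4 near the low end. Among genes of iron handling, with 6 analysed of 11 listed, sample 4 had a median of 0.06 log2 units. Fth1, the heavy chain of the iron store ferritin, gave 7465, 8100, 8517 and 8170 units. The transferrin receptor gene Tfrc gave 1389, 1223, 1205 and 1357 units. Hmox1, a heme-degrading enzyme induced, like Mt1, by oxidants and metals, had the largest range of the 6 analysed genes and was highest in sample 4, with 436, 500.2, 442 and 612 units. Past the variance test were 0 genes of either list, and 0 at an unadjusted p under 0.05, against 0% and 5.62% of all probe sets.

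Of 12 analysed genes of glutathione and redox control, 8 exceeded the mean of samples 1 to 3 in sample 4 (median 0.05 log2 units). In sample 3, 9 exceeded the mean of the rest, with a median of 0.19. Of all 6210 analysed probe sets, 3241 did so in sample 4 and 3176 in sample 3. The subunits of glutamate-cysteine ligase, which makes the precursor of glutathione, differed in spread. Gclc gave 240, 222, 287 and 249 units, and Gclm gave 97.1, 72.1, 190.2 and 147 units, the largest range of the list (1.40 log2 units). Neither was highest in sample 4. At an unadjusted p under 0.05 there were 0 of the 12 genes, against 5.62% of all probe sets.

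Glucocorticoids are known inducers of Mt1 and Mt2, and the listed glucocorticoid-responsive genes were high in sample 4 as a list. Their median log2 deviations were -0.38, -0.23, 0.04 and 0.65 in samples 1 to 4, beside -0.33, -0.11, -0.14 and 0.58 for Mt1, -0.05, -0.02, -0.07 and 0.14 for Mt2, and 0.25, -0.23, -0.15 and 0.13 for Mt3. Of 16 listed genes, 13 were analysed. Sample 4 held the highest value of 11 of the 13, against 31.1% of all analysed probe sets. In sample 1, 2 of the 13 exceeded the mean of the rest, against 3194 of all 6210 analysed probe sets. Among the 3 genes with too low a mean for analysis, Tsc22d3, a leucine zipper gene induced by glucocorticoids, ran the other way (75.6, 130, 97.7 and 29.2 units in samples 1 to 4), and the receptor gene Nr3c1 had a log2 deviation of -0.38 in sample 4. Sult1a1, also among these 3, went with the list, at 5.95, 5.05, 27.0 and 45.75 units, below the floor in samples 1 to 3 and highest in sample 4. All 3 were named after their values were seen. The list's high values in sample 4 were known from an earlier examination of these arrays and are no separate evidence. The part of glucocorticoids in the metallothionein signals was not tested. Sgk1, a kinase gene induced by glucocorticoids, gave 439.9, 472, 528 and 1237 units, and Fkbp5, whose product binds the glucocorticoid receptor complex, gave 533, 693, 707 and 887 units. The cell cycle inhibitor Cdkn1a, with the largest range of the analysed genes, was highest in sample 3, at 257 units, and gave 74.6 units in sample 4. Past the variance test were 0 of the 13 genes, and 2 (Sgk1 and Klf9) had an unadjusted p under 0.05, against 5.62% of all probe sets. Klf9 was named after its value was seen.

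**Figure D4:**
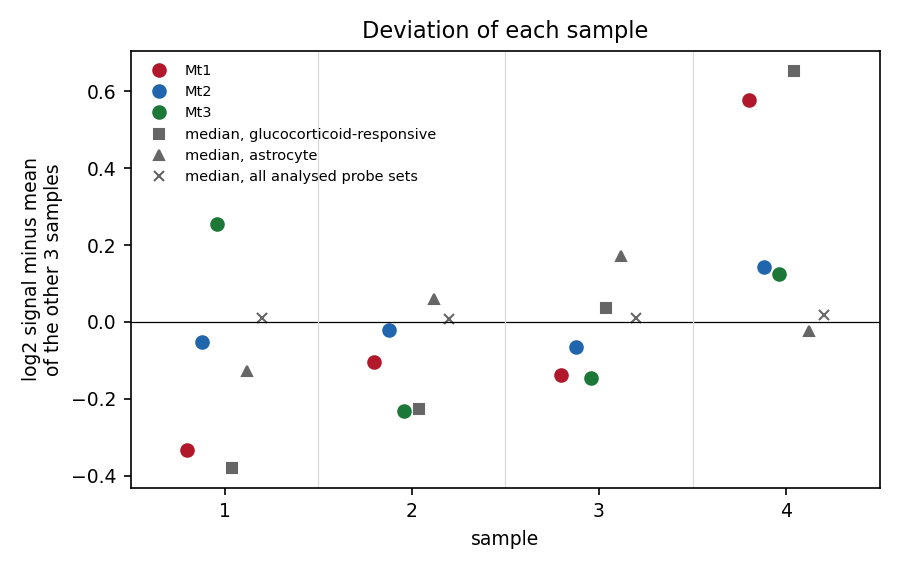
Log2 difference of each sample from the mean of the other 3 (y axis) for Mt1, Mt2 and Mt3 (coloured points), and the median of the same measure over glucocorticoid-responsive genes, astrocyte genes and all analysed probe sets (grey marks), by sample (x axis). In sample 4, Mt1 (0.58) and the glucocorticoid list (0.65) are high, and the astrocyte list (-0.02) and all probe sets (0.02) are near 0.

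Genes of interleukin-6 and STAT3 signalling, a route by which cytokines act on Mt1 and Mt2 transcription, had a median of -0.11 log2 units in sample 4, where 4 of 10 analysed genes exceeded the mean of the rest. Stat3 gave 488, 651, 533 and 507 units, and the shared receptor subunit gene Il6st gave 200.5, 231, 177 and 188 units, neither highest in sample 4. Timp1, a metalloprotease inhibitor, gave 211, 530.4, 339.9 and 735 units, with the lowest value in sample 1 and the highest in sample 4. Of the 10 genes, 0 passed the variance test and 2 (Timp1 and Serpina3n) had an unadjusted p under 0.05, against 5.62% of all probe sets. Serpina3n was named after its value was seen.

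Of 12 analysed astrocyte genes, 6 exceeded the mean of the remaining samples in sample 4 and 2 did so in sample 1. The medians were -0.02 and -0.13 log2 units. Of all 6210 analysed probe sets, 3241 exceeded that mean in sample 4 and 3194 in sample 1. The summed signal of the 12 genes was 28383 units in sample 4, between 27571 and 31297 units in the others. The intermediate filament gene Gfap was highest in sample 4 (827, 876, 581 and 1320 units in samples 1 to 4). The water channel gene Aqp4 was lowest there (603, 739, 994 and 532 units), as was the glutamate transporter gene Slc1a2 (189.7, 219, 373 and 107 units), which had the largest range of the list. Of the 12 genes, 0 passed the variance test, and 2 (Gfap and Slc1a2) had an unadjusted p under 0.05, against 5.62% of all probe sets. In bulk tissue, fewer cells of a type and less RNA per cell cannot be told apart.

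**Figure D5:**
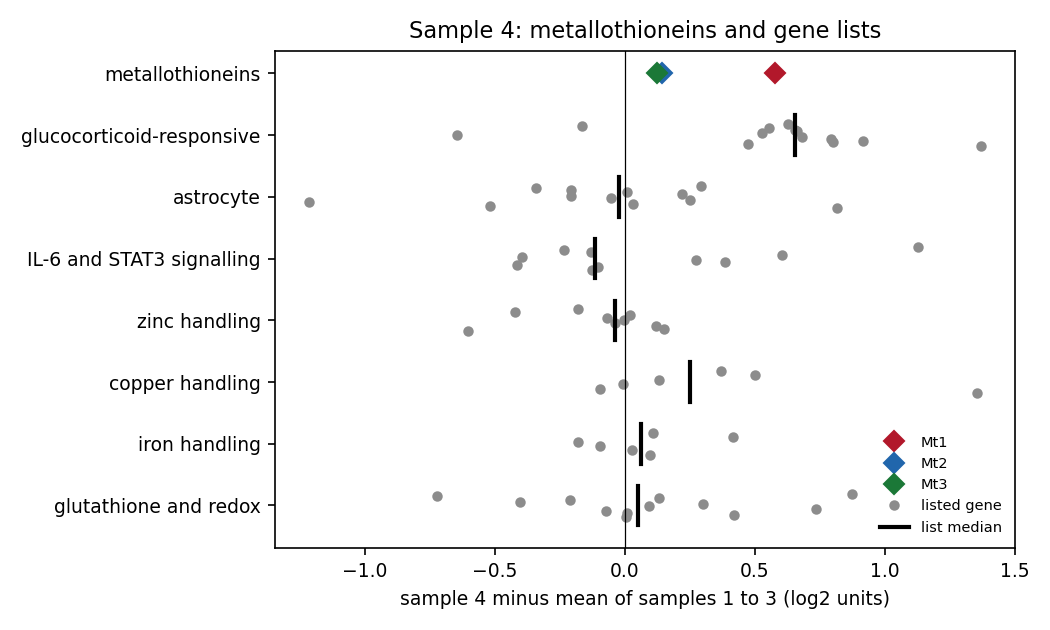
Log2 signal in sample 4 minus the mean of samples 1 to 3 (x axis) for the metallothioneins (diamonds) and for the analysed genes of each list (points, with the list median as a bar). The glucocorticoid-responsive list has a median of 0.65, copper handling 0.25, and the other 5 lists plotted, of astrocyte, IL-6 and STAT3, zinc, iron and redox genes, lie between -0.11 and 0.06.

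Markers of other cell types that the tissue can hold also differed between samples, and their counts are of analysed genes that exceeded the mean of the remaining samples. Of all 6210 analysed probe sets, 3241 exceeded that mean in sample 4 and 3194 in sample 1. Choroid plexus and meninges are tissues in which Mt1 and Mt2 are known to be high. In sample 4, 3 of 3 choroid plexus genes exceeded that mean, 1 of them as the highest value, with a summed signal of 2196 units, between 1104 and 2955 units in the others. Much of this sum was Ttr, the thyroxine carrier of choroid plexus, which was highest in sample 1 (2630 units) and gave 1820.2 units in sample 4. Without Ttr the sum was highest in sample 4, at 375 units, against 150 to 347 units in samples 1 to 3. Meningeal genes exceeded it in sample 4 for 5 of 6, of which 3 were highest there, with a summed signal of 9702 units, against 6196 to 7279 units in samples 1 to 3. Much of this sum was Ptgds, a prostaglandin synthase gene, and without it the sum was 2968 units in sample 4 and 2384 to 2833 units in samples 1 to 3. Dcn, the first gene of that list, gave 723, 343, 869 and 813 units, highest in sample 3. Their collagen gene Col1a1 gave 182, 192, 182 and 319 units. Igfbp2, the 1 analysed meningeal gene below that mean in sample 4, was lowest there, at 297 units, and was named after its value was seen. Oligodendrocyte genes exceeded it in sample 4 for 5 of 6, with a sum of 10805 units, against 7508 to 10234 units in the others. Neuronal genes exceeded it in sample 4 for 1 of 8 and in sample 1, where Mt3 was highest, for 7 of 8, with sums of 14691 units in sample 4, 20246 units in sample 1, and 16969 and 18110 units in samples 2 and 3. Microglial genes exceeded it in sample 4 for 1 of 6, with sums of 2394 to 3073 units over the samples. Vessel genes exceeded it there for 2 of 4, with sums of 662 to 947 units, and erythroid genes for 2 of 4, none of them highest there, with sums of 4652 to 14231 units. Below the floor in any sample was 1 analysed marker gene, of the choroid plexus list. The part of cell composition in the metallothionein signals was not tested.

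The genes that flank the cluster differed in direction. Of the 3 nearest analysed genes on each side, 2 of 6 had a signal there above the mean of samples 1 to 3, and 4 had one below it. On the Mt4 side, Gnao1, a G protein subunit, was highest in sample 4 (3082, 3581, 4305 and 5705 units), while Nudt21 and Fto deviated there by -0.56 and -0.41 log2 units. On the Mt1 side, Herpud1, an endoplasmic reticulum stress gene, was 0.29 log2 units above, and Psme3ip1 and Arl2bp were lowest in sample 4, with 182 and 1390.1 units there. Gnao1 and Arl2bp had unadjusted p-values of 0.0295 and 0.00540 in the F test of variance (adjusted p = 0.786 and 0.564), and 0 of the 6 passed it. An unadjusted p under 0.05 was found for 5.62% of all probe sets.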

How the data were processed

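Per the labels and the deposited table, each value is a linear intensity of 1 probe set on 1 array, and the software that made it is not given in the sources used here. Leaving out the lowest and highest 2% of probe sets, the mean signal was 250.1 units as an average over the arrays. Such an average does not show whether the arrays shared a scale before deposit. No detection calls were used, so low signals may be background, and precision is limited by the number of arrays.

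From 12488 probe sets, 66 controls were left out. Quantile normalization across arrays used limma 3.58.1 (R 4.3.3), values under the 25th percentile were set to it, and log2 was taken. Signals in the text are before that floor. Analysed were the 6210 probe sets whose mean signal exceeded the median over probe sets. A probe set was named where the annotation gives 1 symbol (10833), updated through the Entrez identifier to RefSeq, GRCm38.p6 (10817). A gene with several probe sets was represented by the one with the highest mean.

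Each probe set's variance was tested against limma's robust intensity trend across all analysed probe sets (one-sided F test, 3 residual and 5.06 prior degrees of freedom, Benjamini-Hochberg). The script was tested on simulated data. Members, lists and tests were chosen with earlier results of these data known. Named were the metallothioneins, the first 2 analysed genes of each list, the gene with the largest range in lists of function, the 4 genes of nearest pattern, and 3 neighbours per side. Alternatives covered scaling, floor, filter, the variance test and leaving out each sample. Motifs were searched with Python 3.11.15.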

Additional observations from a re-analysis of the deposited data

Results flagged for a closer look

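Of 53 named genes tested for a single far sample among 4, 4 exceeded Dixon's critical value. Chance gives about 1 in 20 for genes chosen without regard to their values, a rate that does not apply here, since some of these genes were named for a pattern near that of a metallothionein or for a large range. Mt1, Mt2 and Mt3 did not exceed it. The value is the gap to the nearest other sample as a share of the whole log2 range. For the collagen gene Col1a1 it was 0.900, with sample 4 highest, and for Drd2, among the genes of nearest pattern to Mt2, 0.863, also with sample 4 highest. For 2 genes that flank the metallothionein cluster, sample 4 was the far lowest, with 0.849 for Psme3ip1 and 0.868 for Arl2bp. All 4 far values were in sample 4, which also had the highest 3' to 5' ratios of Actb and Gapdh.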

How the results depend on the processing

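The variance test gave 0 probe sets, and 0 metallothioneins, after adjustment under each alternative: median scaling, deposited values, no floor, no filter, the local median as the reference of the test, and leaving out each sample. The number at an unadjusted p under 0.05 was 349 of 6210 probe sets as reported and 423 of 12422 without the filter. Under the other alternatives it was 311 to 364, of 6210 or 6211. It was 0 of 3 for the metallothioneins, except for 1 of 3 without sample 3. The log2 range of Mt2 was 0.16 as reported, 0.40 with median scaling and 0.27 in the deposited values, and that of Mt3 was 0.60 with median scaling. Leaving out each sample in turn gave 0.17 to 0.69 for Mt1, 0.033 to 0.16 for Mt2, 0.26 to 0.40 for Mt3, and 0.15 to 0.53 for the range of the log2 ratio of Mt1 to Mt2, with the lowest value without sample 4 for Mt1, Mt2 and the ratio. Leaving out a sample can itself narrow a range. The median of the astrocyte list in sample 4 (-0.02) changed sign without sample 3, at 0.017, and ranged from -0.074 to 0.017 over such omissions. The deviations of single genes and lists under other settings were chosen after the data had been seen. The median over several probe sets gave no value, since each gene has 1. No paired analysis was possible because the samples form 1 group.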

Other observations

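Some metal-handling genes had a mean too low for analysis, and their values are given as measured, chosen after they were seen. Slc30a1, a plasma membrane zinc exporter known, like Mt1, as a target of Mtf1, gave 39.2, 41.4, 47.1 and 27.8 units in samples 1 to 4, so that it was lowest in sample 4, close to the floor of 27.7 units. Ceruloplasmin (Cp), the copper-carrying ferroxidase, gave 10.6, 22.4, 49.4 and 66.6 units, below the floor in samples 1 and 2 and highest in sample 4. The copper pump gene Atp7b gave 36.7, 43.8, 26.3 and 39.9 units.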
